A study of Mus musculus with 6 samples.

Results

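Collagen chain genes encode the alpha chains that assemble in threes into collagen molecules. They were taken as the protein-coding genes whose symbol is Col, a number, the letter a and a number, with at least 10 reads summed over the 6 libraries. Of 44 such genes in the files 33 reached that limit, out of 19452 genes tested in all. By type they were 10 fibrillar, 4 basement membrane, 4 beaded and 6 FACIT chains (fibril-associated collagens with interrupted triple helices), 3 chains of the network-forming short-chain group, 2 multiplexins, 2 transmembrane chains and 2 others (Col7a1 and Col28a1).

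The libraries held poly(A)+ RNA of Flp-In 3T3 cells, a mouse embryonic fibroblast line that carries an integrated recombination site, grown in serum. SAFB KD cells (3 libraries) received siRNAs against Safb, Safb2 and Sltm together, and control cells (3 libraries) received a control siRNA. Both were transfected on plating and again a day later and were harvested on the third day, so the values belong to a transient knockdown in 1 cell line. The comparison asks how collagen transcripts changed when the SAFB family, nuclear RNA-binding proteins, was depleted.

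Fibroblasts are the main source of fibrillar collagen in connective tissue. Most fibrillar chains carry an unbroken triple helix, and they pack into fibrils. Types I and III make up the bulk of these fibrils, and types V and XI are found inside the fibril and help to start it. Basement membrane chains form the type IV sheet under epithelia and around vessels, beaded chains form the type VI microfibrils near the cell, and FACIT chains sit on the surface of fibrils. Most molecules need several different chains in a fixed proportion, so the levels of partner chains matter as well as each chain's own.

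In SAFB KD libraries, most of the collagen chains that these cells expressed well were lower than in control libraries, by modest amounts, and one of the most abundant, Col5a2, was higher. In the edgeR quasi-likelihood test (adjusted p under 0.05 over all genes) 17 of the 33 fell, 3 rose and 13 were not called, where 41.5% of all genes tested were called one way or the other. Of all genes, 20.1% fell and 21.4% rose, so 51.5% of the collagen chains fell against a background of 20.1%, and 9.09% rose against 21.4%. Their median log2 fold change was -0.32, against 0.01 over all genes tested. No chain was called beyond 2-fold in either direction by glmTreat, where the background is 0.699% higher and 0.524% lower. Called changes of at least 0.5 on the log2 scale were seen for 2 chains that rose (background 5.2%) and 7 that fell (background 7.04%). Groups of libraries did not overlap for 5 chains with SAFB KD above (background 25.3%) and for 18 with SAFB KD below (background 23.7%), or for 23 either way (background 49%), and for 10 they overlapped.

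High counts make small changes easier to call, so the well-expressed chains were also set against genes of like level. Among the 16 chains with a mean of at least 10 CPM (counts scaled by the TMM-adjusted library total), 68.8% fell and 12.5% rose, against 29.8% and 35.9% of all genes at that level. Their median log2 fold change was -0.32, against 0.03 for those genes. Among the 13 chains of at least 100 CPM, 9 fell (69.2%), 1 rose (7.69%, Col5a2) and 3 were not called (Col4a1, Col4a2 and Col8a1), against 30.1% lower and 44.8% higher of all genes at that level.

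The knockdown was visible in every library. Safb had 48.5, 46.7 and 44.5 CPM in SAFB KD 1 to 3, against 90.2, 94.8 and 96.1 CPM in control 1 to 3, Safb2 had 29.7 to 30.3 CPM in SAFB KD against 45.7 to 49.0 CPM in control, and Sltm had 61.0 to 62.0 CPM in SAFB KD against 96.3 to 105.6 CPM in control. Total counts ran between 33323307 and 53441129 per library. The first principal component of log2 CPM held 44.9% of the variance and separated the groups. On the second (16.3%) control 3 lay at -44.2 and controls 1 and 2 at 23.1 and 26.5, and in Col1a1 and Col1a2 control 3 was the lowest control and control 1 the highest. Both chains were still called lower when any 1 library was left out.

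Promoters are shown for chains whose genes start close to each other and for Col1a2, the chain with the most reads. They are RefSeq sequences of GRCm38.p6, 250 bases before and 50 bases after the annotated start. Capitals mark CCAAT on either strand (ATTGG is its reverse complement), a short box found in many vertebrate promoters and known in those of the type I genes. Col4a1 and Col4a2, the common basement membrane chains, lie on opposite strands, with RefSeq starts 21 bases apart. Their first bases overlap, so no gap lies between the genes, and their windows share 78 bases. Col4a5 and Col4a6, the chains of another type IV network, point away from each other without overlap, with starts 1343 bases apart. The windows are as follows.
Col1a2 (chr6:4505368-4505667, plus strand): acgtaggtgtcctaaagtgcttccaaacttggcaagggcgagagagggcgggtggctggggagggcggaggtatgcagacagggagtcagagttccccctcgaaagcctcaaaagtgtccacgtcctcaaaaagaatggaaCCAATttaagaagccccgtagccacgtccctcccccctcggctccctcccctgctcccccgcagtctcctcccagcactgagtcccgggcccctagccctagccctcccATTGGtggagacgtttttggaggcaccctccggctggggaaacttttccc
Col4a1 (chr8:11312777-11313076, minus strand): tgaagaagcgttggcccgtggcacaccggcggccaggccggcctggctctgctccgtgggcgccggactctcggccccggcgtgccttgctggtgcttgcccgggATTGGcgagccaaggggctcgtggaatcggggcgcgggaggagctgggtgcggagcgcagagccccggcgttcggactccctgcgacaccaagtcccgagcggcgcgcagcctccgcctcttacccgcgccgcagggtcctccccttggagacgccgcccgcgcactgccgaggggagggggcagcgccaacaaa
Col4a2 (chr8:11312555-11312854, plus strand): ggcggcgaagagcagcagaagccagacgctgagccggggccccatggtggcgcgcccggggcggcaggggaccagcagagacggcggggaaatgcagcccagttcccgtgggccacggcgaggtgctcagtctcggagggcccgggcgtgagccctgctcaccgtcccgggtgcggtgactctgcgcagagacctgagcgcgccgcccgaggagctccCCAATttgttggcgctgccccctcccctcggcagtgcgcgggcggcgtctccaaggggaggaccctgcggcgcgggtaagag
Col4a5 (chrX:141475169-141475468, plus strand): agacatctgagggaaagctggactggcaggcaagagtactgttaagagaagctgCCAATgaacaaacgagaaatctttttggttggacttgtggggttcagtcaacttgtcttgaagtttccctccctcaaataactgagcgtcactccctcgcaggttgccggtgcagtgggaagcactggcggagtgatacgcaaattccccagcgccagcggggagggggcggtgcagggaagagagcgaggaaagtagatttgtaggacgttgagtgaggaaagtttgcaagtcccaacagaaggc
Col4a6 (chrX:141474027-141474326, minus strand): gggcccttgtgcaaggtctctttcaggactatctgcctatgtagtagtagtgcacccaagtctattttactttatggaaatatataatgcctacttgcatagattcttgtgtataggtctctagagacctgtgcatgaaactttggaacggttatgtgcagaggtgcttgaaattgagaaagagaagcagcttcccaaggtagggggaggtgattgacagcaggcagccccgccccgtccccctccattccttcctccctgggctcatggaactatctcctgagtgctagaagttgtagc

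CCAAT began 109 bases before the RefSeq start of Col1a2, with ATTGG on that RefSeq start. The whole Col1a2 window (4505368 to 4505667) lies inside the gene span used elsewhere here, which begins at 4504814. Its distances thus hold for the RefSeq start only. CCAAT began 32 bases before the start of Col4a2 and 196 bases before that of Col4a5. ATTGG began 145 bases before the start of Col4a1, and the Col4a6 window held neither. The table held windows for 26 of the 33 chains. CCAAT was in 11 of the 26 (42.3%), against 37.4% of all 32851 windows, and in 6 of the 14 of at least 10 CPM (42.9%), against 38.2% of windows of genes at that level. The GC box core GGGCGG, also counted on both strands, was in 78.6% of the windows of chains of at least 10 CPM, against 66.4%. TATAAA, counted the same way, was in 7.14% of them, against 6.56%. The windows without table entries were those of Col1a1, Col5a2, Col12a1, Col9a3, Col2a1, Col14a1 and Col22a1.

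**Figure D1:**
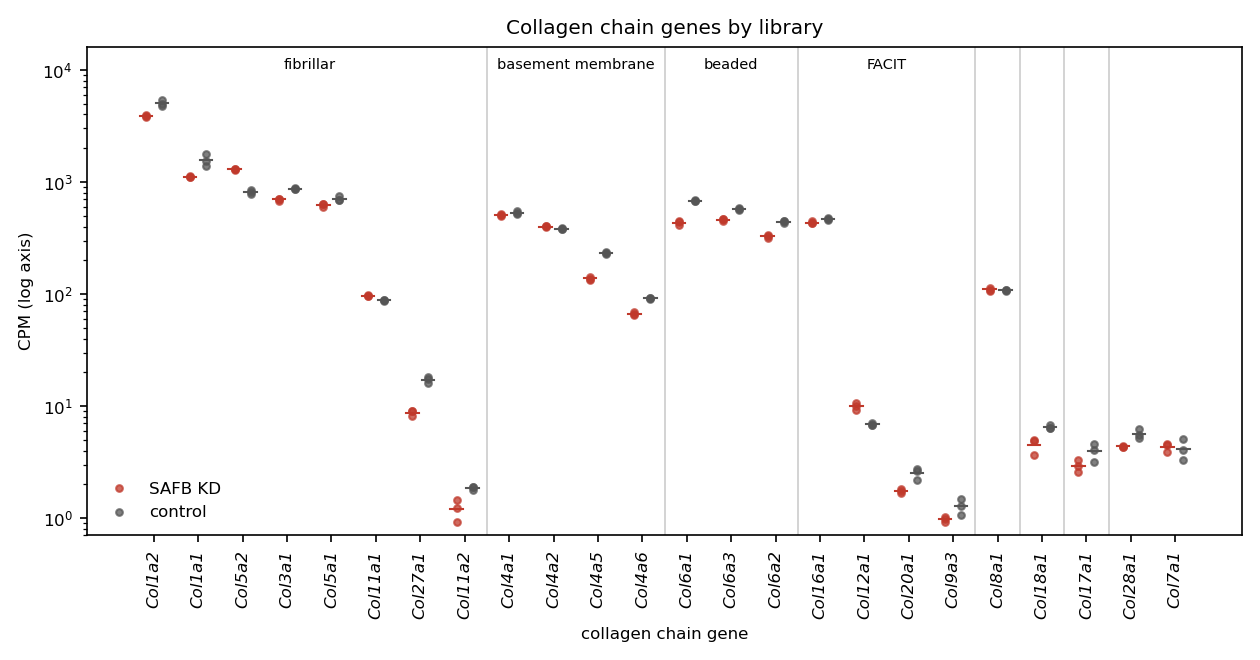
Level of each collagen chain of at least 1 CPM in each library (CPM on a log axis). Points are libraries, 3 per group, short lines are group means, and grey lines part the types, the last 4 panels being the short-chain, multiplexin, transmembrane and other chains. SAFB KD points lie below control points for 17 of the 24 chains (70.8%), above for 4 (16.7%) and among them for 3. Of all genes of at least 1 CPM, 31.2% lay below and 34.3% above.

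The fibrillar chains fell for the most part. Of the 10, 7 fell (70%), 2 rose (20%) and 1 was not called, with a median log2 fold change of -0.35. Of all genes tested 20.1% fell and 21.4% rose. Among the 8 of at least 1 CPM, 75% fell and 25% rose, against 28.7% and 31.6% of all genes at that level. Col1a1 and Col1a2 encode the chains of type I collagen, the main fibril protein of skin, bone and tendon. Col1a2 (chromosome 6, 4504814 to 4541544, plus strand, GRCm38) had 3822, 3958 and 3856 CPM in SAFB KD 1 to 3, against 5351, 5007 and 4807 CPM in control 1 to 3. It was 1.30-fold lower (log2 fold change -0.38, SE 0.029, adjusted p = 4.01e-14). Col1a1 (chromosome 11, 94936224 to 94953042, plus strand) had 1111, 1136 and 1101 CPM in SAFB KD libraries, against 1778, 1528 and 1388 CPM in control libraries, a fold change of 0.713 (-0.49, SE 0.043, adjusted p = 2.92e-12). In both genes the groups lay apart, the SAFB KD libraries close together and the controls spread out. For Col1a1 the log2 fold change ran between -0.58 and -0.39 when single libraries were left out.

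Col3a1 encodes the only chain of type III collagen, which is common in skin and vessel walls and forms fibrils together with type I. It had 676, 711 and 711 CPM in SAFB KD libraries, against 878, 862 and 872 CPM in control libraries, 1.24-fold lower (-0.32, SE 0.028, adjusted p = 3.73e-12). The SD of the controls was 8.27 CPM here (n = 3), so the spread seen in the type I chains is not shared by every fibrillar chain.

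The type V chains moved in opposite directions. Col5a2 (chromosome 1, 45374321 to 45503282, minus strand) had 1286, 1316 and 1316 CPM in SAFB KD libraries, against 785, 808 and 851 CPM in control libraries. It was 1.60-fold higher (0.68, SE 0.029, adjusted p = 1.3e-21), the largest rise among chains of at least 1 CPM. Its partner Col5a1 had 598, 633 and 629 CPM in SAFB KD libraries, against 742, 697 and 686 CPM in control libraries, 1.14-fold lower (-0.19, SE 0.031, adjusted p = 2.28e-06). Neither gene's groups overlapped. Col5a3, the third type V chain, stayed under 1 CPM on average and was not called (0.36, adjusted p = 0.376). Col5a2 lies on chromosome 1 tail to tail with Col3a1, 24.6 kb away, and these neighbours changed in opposite directions.

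Col11a1, the type XI chain that also joins type V chains in mixed molecules, rose slightly, with 95.5 to 97.5 CPM in SAFB KD libraries against 87.2 to 88.8 CPM in control libraries (0.13, SE 0.034, adjusted p = 0.00156). Col11a2, its partner in cartilage, was scarce. It had 1.22, 0.928 and 1.45 CPM in SAFB KD libraries, against 1.91, 1.77 and 1.90 CPM in control libraries (-0.62, SE 0.20, adjusted p = 0.011), and the call was lost without SAFB KD 2 (adjusted p = 0.0902).

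Col27a1, a fibrillar chain best known from cartilage, had the largest fall among chains of at least 1 CPM. Its gene lies on chromosome 4 (63214004 to 63334991, plus strand). It had 9.07, 8.12 and 9.05 CPM in SAFB KD libraries, against 15.9, 17.5 and 18.2 CPM in control libraries, 1.96-fold lower (-0.97, SE 0.075, adjusted p = 4.9e-14). Col2a1, the main cartilage chain, was near the limit of detection, with 0, 10 and 8 reads in SAFB KD 1 to 3 against 16, 27 and 25 reads in control 1 to 3. It was called lower (-2.09, SE 0.52, adjusted p = 0.00109) but not beyond 2-fold (adjusted p = 0.308). The log2 fold change ran between -2.69, without SAFB KD 2, and -1.61, without SAFB KD 1, when single libraries were left out, and the chain stayed called lower. The 0 reads in SAFB KD 1 allow up to 3 reads, or 0.0853 CPM, for counting error alone. Sox9, the transcription factor that drives Col2a1 and Col27a1 in cartilage, fell as well, with 60.9 ± 4.5 CPM in SAFB KD libraries and 127 ± 5.16 CPM in control libraries (SD, n = 3 each; log2 fold change -1.06, SE 0.041, adjusted p = 2.68e-23). Its part in the values of these chains was not tested.

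**Figure D2:**
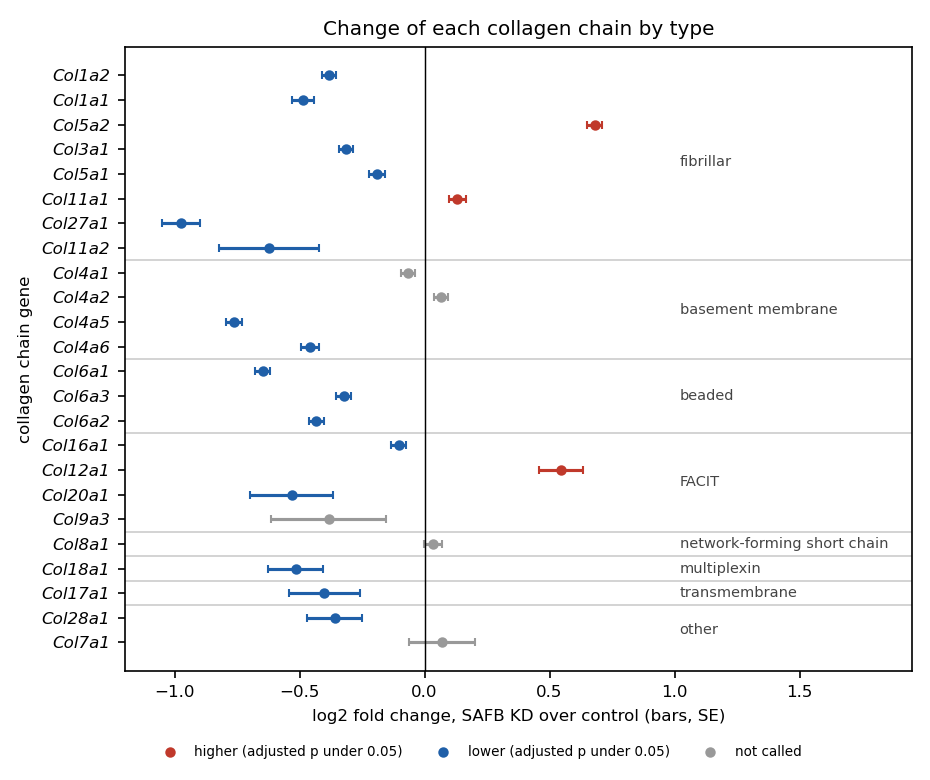
Log2 fold change of SAFB KD over control for each collagen chain of at least 1 CPM, by type and, within a type, by level. Bars are SE, and colour gives the call at an adjusted p under 0.05. Among fibrillar chains Col5a2 stands at 0.68 and Col11a1 at 0.13 while the other 6 lie below 0, and all beaded chains drawn lie between -0.65 and -0.32.

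Of the 4 basement membrane chains 2 fell (50%) and 2 were not called, with a median of -0.26. All 4 were above 10 CPM, a level at which 29.8% of all genes fell and 35.9% rose. Col4a5 (chromosome X, 141475385 to 141689234, plus strand), whose loss causes Alport syndrome, had 137, 141 and 135 CPM in SAFB KD libraries, against 239, 233 and 229 CPM in control libraries. It was 1.70-fold lower (-0.76, SE 0.031, adjusted p = 2.96e-22), with the SAFB KD libraries far below all controls. Its neighbour Col4a6 also fell, with 64.7 to 69.0 CPM in SAFB KD libraries against 91.0 to 91.6 CPM in control libraries (-0.46, SE 0.036, adjusted p = 1.05e-13). The difference between these falls is seen in their ratio, given below.

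The common chains Col4a1 and Col4a2 changed little and in opposite directions. Col4a1 had 502 to 515 CPM in SAFB KD libraries against 521 to 549.8 CPM in control libraries (-0.07, SE 0.029, adjusted p = 0.0695). Col4a2 had 397 to 403 CPM in SAFB KD libraries against 377 to 389 CPM in control libraries (0.07, SE 0.029, adjusted p = 0.0626). In neither did the groups overlap, yet neither passed the test, and both calls turn on the processing: Col4a1 passed in 6 of the 15 other settings tried and Col4a2 in 2. Col4a3 and Col4a4, the chains of the kidney filter, had 8 and 3 reads in all 6 libraries together.

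The beaded chains fell together. Col6a1 (chromosome 10, 76708792 to 76726168, minus strand) had 410.5, 438 and 452 CPM in SAFB KD libraries, against 673, 682 and 683 CPM in control libraries. It was 1.57-fold lower (-0.65, SE 0.031, adjusted p = 3.23e-20). Col6a2, its neighbour on chromosome 10 (85.2 kb apart, same strand), had 316 to 334 CPM in SAFB KD libraries against 432 to 449 CPM in control libraries (-0.43, SE 0.030, adjusted p = 3.23e-15). Col6a3, the large chain that completes the type VI molecule and lies on chromosome 1, had 450.5 to 465 CPM in SAFB KD libraries against 557 to 589 CPM in control libraries (-0.32, SE 0.029, adjusted p = 5.01e-12). All 3 were called lower and lay below every control library, against 30.1% and 32.2% of all genes of at least 100 CPM. Col6a6, a chain that can stand in for Col6a3, had a mean under 1 CPM and was not called (-0.14, adjusted p = 0.721).

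Of the 6 FACIT chains 1 rose (16.7%), 2 fell (33.3%) and 3 were not called, shares near those of all genes tested (21.4% higher and 20.1% lower) for so few members. Their median was 0.22 over all 6 but -0.24 over the 4 of at least 1 CPM. Col12a1, a fibril-surface chain of tendon and other loaded tissues, had 10.7, 10.1 and 9.30 CPM in SAFB KD libraries, against 6.80, 6.79 and 6.99 CPM in control libraries, 1.46-fold higher (0.54, SE 0.088, adjusted p = 1.88e-06). Col16a1 was the abundant FACIT chain and fell by little, with 427 to 444 CPM in SAFB KD libraries against 457 to 478 CPM in control libraries (-0.10, SE 0.029, adjusted p = 0.00383). Col20a1 had 1.82, 1.74 and 1.68 CPM in SAFB KD libraries, against 2.19, 2.73 and 2.65 CPM in control libraries (-0.53, SE 0.17, adjusted p = 0.0085). Col9a3, a cartilage FACIT chain, was not called (-0.38, adjusted p = 0.193). Col14a1 and Col22a1, both under 1 CPM, were not called. Col14a1 had 13, 10 and 7 reads in SAFB KD libraries, against 3, 11 and 0 reads in control libraries, and Col22a1 had 11, 7 and 6 reads in SAFB KD libraries, against 4, 4 and 0 reads in control libraries.

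Among the remaining types the multiplexin Col18a1, a proteoglycan core of basement membranes and the parent of endostatin, had 3.67, 4.87 and 4.96 CPM in SAFB KD libraries, against 6.38, 6.37 and 6.79 CPM in control libraries. It was 1.43-fold lower (-0.52, SE 0.11, adjusted p = 0.000154). Col28a1, a chain of beaded-like structure found around nerves, had 4.35 to 4.43 CPM in SAFB KD libraries against 5.18 to 6.19 CPM in control libraries (-0.36, SE 0.11, adjusted p = 0.00672). Col17a1, the transmembrane chain of hemidesmosomes, had 2.60 to 3.30 CPM in SAFB KD libraries against 3.18 to 4.61 CPM in control libraries (-0.40, SE 0.14, adjusted p = 0.0199). Its groups overlapped, and the call was lost in 3 settings, without control 2 (adjusted p = 0.0557), without control 3 (0.118) and without SAFB KD 2 (0.114). Col8a1, the short chain of vessel walls and corneal membrane, had 107 to 114 CPM in SAFB KD libraries against 106 to 109 CPM in control libraries and was not called (0.03, adjusted p = 0.476). Col7a1, which anchors the epidermis, had 3.92 to 4.55 CPM in SAFB KD libraries against 3.32 to 5.06 CPM in control libraries and was not called (0.07, adjusted p = 0.725). The other scarce chains, Col10a1, Col25a1, Col8a2 and Col15a1, were not called, with log2 fold changes between -1.54 and 0.54 on 10 to 93 reads in all.

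Added over the 33 chains, the collagen reads came to 10636 ± 174 CPM in SAFB KD libraries and 12663 ± 506 CPM in control libraries (SD, n = 3 each), a ratio of 0.840. They took up 1.05% ± 0.015 of all counts in SAFB KD libraries and 1.28% ± 0.058 in control libraries. Without Col1a2 the sums were 6758 ± 107 CPM in SAFB KD libraries and 7608 ± 231 CPM in control libraries, a ratio of 0.888. By type the ratio was lowest for the beaded chains among the 4 main types (1221 ± 25.7 CPM in SAFB KD libraries and 1697 ± 20.7 CPM in control libraries, ratio 0.720), then came fibrillar (0.847), basement membrane (0.898) and FACIT chains (0.937). In bulk RNA of this kind, fewer cells that make collagen and less collagen RNA per cell cannot be told apart.

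Levels of different genes are compared here per kb of merged exons. In SAFB KD libraries the order was Col1a2 (mean 312 CPM per kb), Col1a1 (170.1), Col5a2 (136) and Col6a1 (99.0), and in control libraries it was Col1a2 (407), Col1a1 (238), Col6a1 (155), Col3a1 (88.7) and Col5a2 (84.9). Col5a2 thus moved ahead of Col6a1 and Col3a1 in the order. Divided by coding length in place of exon length, Col5a2 (291 CPM per kb in SAFB KD libraries, 181 in control libraries) was above Col1a1 (256 in SAFB KD libraries, 359 in control libraries) in SAFB KD libraries only, so the place of these genes depends on the length used.

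Ratios of partner chains within each library do not depend on scaling between libraries. Of the pairs listed for comparison, Col8a1 to Col8a2 was left out because Col8a2 had a mean under 1 CPM, and the other 5 were compared. The exact permutation test of 3 against 3 libraries cannot go below p = 0.1 (2-sided), so none could pass 0.05. The log2 ratio of Col5a1 to Col5a2 per exonic kb was -0.93, -0.88 and -0.89 in SAFB KD 1 to 3, against 0.09, -0.04 and -0.14 in control 1 to 3. This is a difference of -0.87, the largest of the 5, with no overlap (exact p = 0.1, adjusted p = 0.125 over the 5 pairs). On the linear scale Col5a1 stood at 0.537 of Col5a2 in SAFB KD libraries and at 0.982 in control libraries. These levels depend on the length used, while the difference between groups does not. Per coding kb, Col5a1 had 113 and Col5a2 291 CPM in SAFB KD libraries, against 128 and 181 CPM in control libraries. Most type V molecules hold a pair of Col5a1 chains to 1 Col5a2 chain.

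Ratios within type VI and type IV shifted less. Col6a1 to Col6a2 was 1.33 ± 0.029 in SAFB KD libraries and 1.55 ± 0.039 in control libraries (SD, n = 3 each), and Col6a3 to Col6a1 was -1.36 ± 0.092 in SAFB KD libraries and -1.69 ± 0.051 in control libraries, differences of -0.22 and 0.33 on the log2 scale (exact p = 0.1 for both). Col6a1 therefore lost more than its partners. Col4a1 to Col4a2 was 0.17 ± 0.025 in SAFB KD libraries and 0.30 ± 0.024 in control libraries (difference -0.13, exact p = 0.1). Adjusted over the 5 pairs these p were 0.125. The type I ratio, Col1a1 to Col1a2, was -0.88 ± 0.013 in SAFB KD libraries and -0.78 ± 0.10 in control libraries and overlapped between groups (difference -0.10, exact p = 0.2, adjusted p = 0.2). The ratio of Col4a5 to Col4a6, added after their values were seen and not tested, was 1.30 ± 0.013 in SAFB KD libraries and 1.60 ± 0.037 in control libraries. As for type V, the levels of these ratios depend on the length used, and the differences between groups do not. Per coding kb, Col6a1 had 141 and Col6a2 106 CPM in SAFB KD libraries, against 221 and 142 CPM in control libraries. Col1a1 had 256 and Col1a2 942 CPM in SAFB KD libraries, against 359 and 1228 CPM in control libraries.

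**Figure D3:**
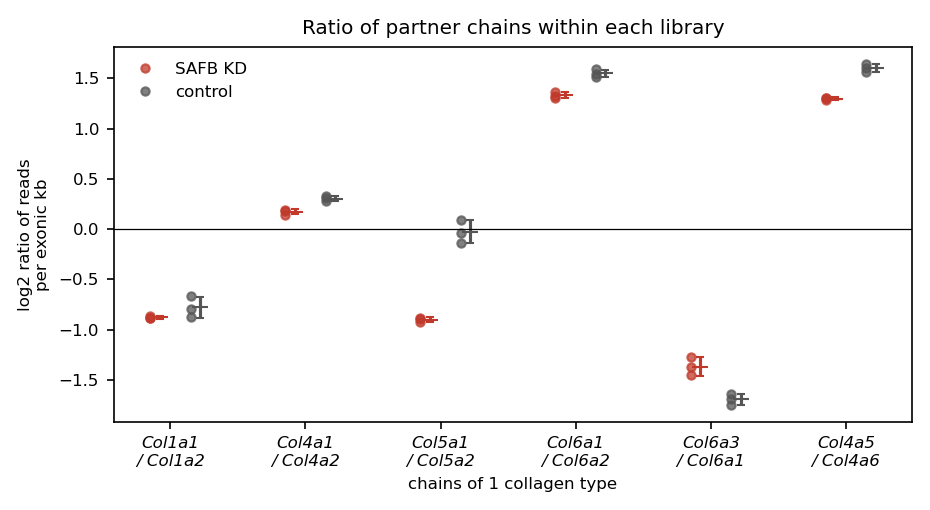
Log2 ratio of partner chains in each library, from reads per kb of merged exons. Points are libraries, and the lines beside them are mean and SD (n = 3). The Col5a1/Col5a2 ratio lies near -0.90 in all SAFB KD libraries and between -0.14 and 0.09 in control libraries, and the Col1a1/Col1a2 points overlap.

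Other features of the chains were compared with those of coding genes of at least 1 CPM. The purine repeat GAAGAAGA, which the study found enriched at mouse Safb1 binding sites, was searched on the sense strand of the longest coding transcript. Introns were not searched, so the counts do not tell whether SAFB proteins bind the unspliced RNA of these genes. It was in 3 of 24 chains (12.5%), Col5a1, Col6a3 and Col18a1, against 30.5% of 11028 coding genes. Median GC content was 56.4% for the chains and 49.8% for the coding genes. Genomic span and log2 fold change had a Pearson r of 0.26 and a Spearman rho of 0.29 across the 24 chains, against a rho of -0.19 across the 11028 coding genes, which share their libraries and are not independent. In all, 18 chains had another annotated gene within their span, 27 genes together. Only 8 of these reached the read limit. Of them 4 on the chain's own strand were all not called, while on the other strand 1 fell and 3 were not called. Of all genes tested 41.5% were called either way. Gm43921, within Col1a2, had 4.72 CPM in SAFB KD libraries and 5.76 CPM in control libraries. The others had at most 1.21 CPM in either group, so few changes could be called among them.

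The genes that make and handle collagen were counted from lists by role, each beside a background of 21.4% higher, 20.1% lower and a median of 0.01 over all genes. Many of the listed genes were well expressed. Among all genes of at least 10 CPM, 35.9% rose and 29.8% fell, with a median of 0.03. Of 18 tested genes that hydroxylate, glycosylate or fold the chains, 5 rose and 6 fell, with a median of -0.00. Plod2, the lysyl hydroxylase of collagen ends, had 145 ± 5.84 CPM in SAFB KD libraries and 91.0 ± 2.21 CPM in control libraries (0.67, adjusted p = 4.18e-19), and P4ha2, a prolyl hydroxylase subunit, also rose (0.50, adjusted p = 1.41e-15). Its relative P4ha3 fell (-0.74, adjusted p = 1.07e-13), as did Fkbp14, a folding enzyme of the endoplasmic reticulum (-0.93, adjusted p = 4.3e-17). Of 10 genes of procollagen export 3 rose and 5 fell, with a median of -0.12. Vipas39, a vesicle protein that helps to deliver collagen-modifying enzymes, fell most among those named (-0.61, adjusted p = 2.75e-10), and Sec24d, a coat protein of export vesicles (-0.30, adjusted p = 1.14e-09), Mia3, which loads procollagen into them (-0.27, adjusted p = 1.45e-08), and Sar1a, which starts their coat (-0.20, adjusted p = 9.81e-07), fell by less.

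Of 10 tested genes that cleave propeptides or crosslink fibrils, 2 rose and 6 fell, with a median of -0.36. Lox, the main lysyl oxidase, had 2744 ± 27.4 CPM in SAFB KD libraries and 4110 ± 25.7 CPM in control libraries (-0.58, adjusted p = 1.95e-21), and Loxl1 had 43.3 ± 1.49 CPM in SAFB KD libraries and 105.1 ± 3.01 CPM in control libraries (-1.28, adjusted p = 8.44e-27). The propeptide-cleaving proteases Adamts2 (-0.73, adjusted p = 8.27e-15) and Adamts14 (-0.97, adjusted p = 2.38e-12) fell too. Of 15 fibril-binding matrix genes 4 rose and 6 fell, with a median of -0.41. Their summed CPM was nonetheless 15351 to 15897 in SAFB KD libraries against 13752 to 14967 in control libraries. Fn1, the most abundant of them, was not called (9697 ± 175 CPM in SAFB KD libraries and 9468 ± 479 CPM in control libraries). Thbs1, a secreted glycoprotein, had 2986 ± 84.5 CPM in SAFB KD libraries and 1374 ± 66 CPM in control libraries (1.12, adjusted p = 2.8e-28), and Dcn, a small proteoglycan on fibrils, rose as well (0.46, adjusted p = 9.42e-16). Tgfbi, a secreted protein that binds collagens (-1.21, adjusted p = 1.06e-23), and the small proteoglycan Ogn (-1.10, adjusted p = 1.32e-15) fell.

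Of 11 collagen receptor genes 3 rose and 6 fell, with a median of -0.40. Their summed CPM, mostly Itgb1, was 2302 to 2362 in SAFB KD libraries against 2125 to 2133 in control libraries. Itga2, the integrin chain that binds type I collagen, rose to 26.7 ± 0.478 CPM in SAFB KD libraries, against 8.06 ± 0.413 CPM in control libraries (1.73, adjusted p = 3.87e-23). Itga11, another collagen-binding integrin chain of fibroblasts, fell (-1.26, adjusted p = 8.68e-16), as did Mrc2, which takes up collagen fragments (-0.48, adjusted p = 4.06e-16). Itgb1, the chain that pairs with both integrin chains, rose (0.40, adjusted p = 2.38e-15).

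Of 11 tested genes of collagen degradation 8 rose (4 beyond 2-fold), 0 fell and 3 were not called, with a median of 0.45. Those not called were Mmp14 (131 ± 2.04 CPM in SAFB KD libraries and 133 ± 1.14 CPM in control libraries, -0.01), Mmp9 (-0.19) and Ctsk (0.18). The abundant Mmp2 rose by little (0.10, adjusted p = 0.0049). The 4 beyond 2-fold, Mmp3, Mmp10, Mmp11 and Mmp13, had means of at most 28.9 CPM in either group. Mmp11, a relative of the collagenases that is not known to cut intact fibrils, had 28.9 ± 1.84 CPM in SAFB KD libraries and 10.2 ± 1.28 CPM in control libraries (1.49, adjusted p = 2.57e-20), Mmp3, a stromelysin that cuts other matrix proteins and activates collagenases, rose by 1.42 on the log2 scale (adjusted p = 3.08e-13), and the lysosomal protease Ctsb had 453 ± 4.32 CPM in SAFB KD libraries and 332 ± 15.5 CPM in control libraries (0.45, adjusted p = 2.79e-15). Mmp13, the main rodent collagenase, was scarce, at 1.92 ± 0.233 CPM in SAFB KD libraries and 0.194 ± 0.122 CPM in control libraries (3.22, adjusted p = 2.45e-11). Of 22 regulators of collagen transcription 5 rose and 7 fell, with a median of -0.04. Ccn2, a matricellular protein induced by TGF-beta, rose (0.81, adjusted p = 7.45e-23), while Tgfb3 (-0.77, adjusted p = 1.28e-15), Smad3, which carries TGF-beta signals to the nucleus (-0.59, adjusted p = 6.62e-15), and Creb3l1, a factor for Col1a1 in bone (-0.89, adjusted p = 3.4e-14), fell.

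**Figure D4:**
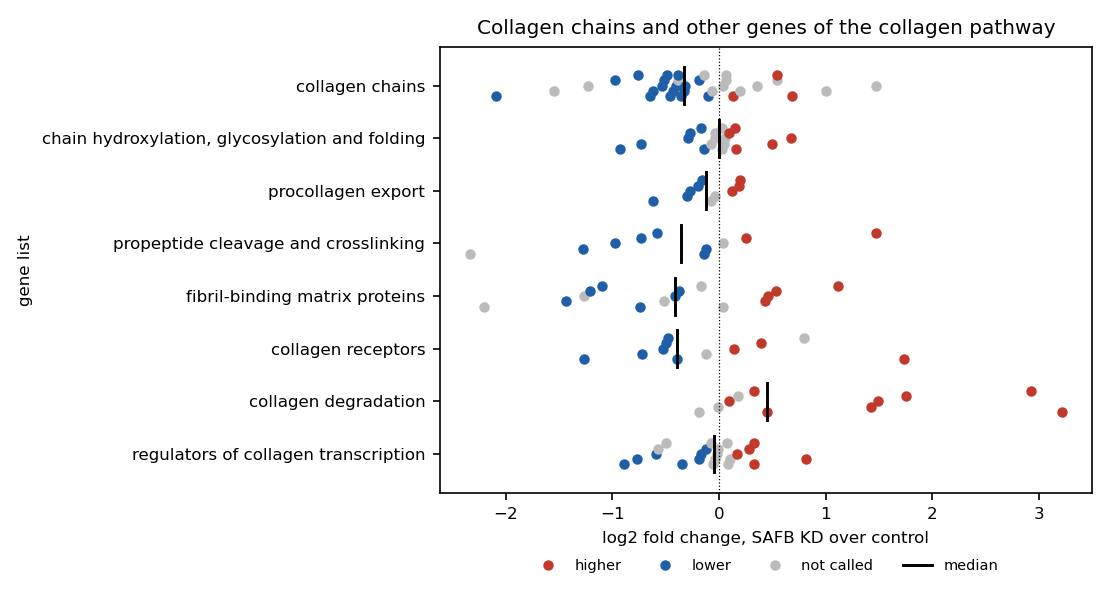
Log2 fold change of SAFB KD over control for every tested gene of the collagen chain list and of 7 lists of genes that make, bind or degrade collagen. Points are genes, coloured by call, and black lines are list medians. The median is -0.32 for the collagen chains and 0.45 for the degradation list, which has no point called lower.

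Markers of cell types that make or do not make collagen were measured in the same libraries. All 12 fibroblast markers passed the read limit, and their sum was 4370 to 4401 CPM in SAFB KD libraries against 4919 to 4991 CPM in control libraries. Of them 3 rose, 6 fell and 3 were not called, beside 21.4% higher and 20.1% lower of all genes. Among all genes of at least 10 CPM, the level of most of these markers, the shares were 35.9% and 29.8%. Fap (1.76, adjusted p = 0.000796), Twist1 (0.21, adjusted p = 0.000436) and Fbln2 (0.13, adjusted p = 0.000977) rose, and Prrx1, S100a4 and Mfap5 were not called. Fap was scarce (0.668 ± 0.040 CPM in SAFB KD libraries and 0.197 ± 0.139 CPM in control libraries), and the Fbln2 groups overlapped. The largest falls were those of the growth factor receptors Pdgfra (142 ± 1.87 CPM in SAFB KD libraries and 366 ± 2.55 CPM in control libraries, -1.36, adjusted p = 3.93e-31) and Pdgfrb (-1.13, adjusted p = 4.77e-25). All 6 smooth muscle markers passed too and summed to 384 to 389 CPM in SAFB KD libraries against 202 to 208 CPM in control libraries, a sum made up mostly of Acta2 (1.29, adjusted p = 5.46e-29), Tagln (1.12, adjusted p = 1.23e-25) and Smtn. Of the 6, 3 rose (Acta2, Tagln and Des), Smtn fell (-0.14, adjusted p = 0.00221), and Myh11 and Cnn1 were not called and overlapped between groups. Of 7 chondrocyte markers 4 passed, with a median of 0.14, and summed to 76.9 to 84.4 CPM in SAFB KD libraries against 149.9 to 159 CPM in control libraries, with Matn1, Hapln1 and Cnmd under the read limit. Nearly all of that sum was Sox9 and Sox5 (-0.50, adjusted p = 1.68e-09), which fell, while the scarce Acan (1.15, adjusted p = 0.235) and Matn3 (0.79, adjusted p = 0.285) were not called. Of 7 osteoblast markers 2 passed, nearly all of the reads being from Runx2, and summed to 52.9 to 54.4 CPM in SAFB KD libraries against 60.3 to 65.3 CPM in control libraries, with Bglap, Ibsp, Alpl and Dmp1 under the limit. Epithelial markers (3 of 7 passed, 0.858 to 1.39 CPM in SAFB KD against 0.830 to 1.03 CPM in control), endothelial markers (4 of 6, 9.45 to 10.4 CPM in SAFB KD against 8.10 to 8.48 CPM in control) and leukocyte markers (3 of 7, 11.9 to 13.6 CPM in SAFB KD against 7.95 to 8.34 CPM in control) stayed low, and Epcam, Krt5, Kdr, Emcn, Ptprc and Adgre1 were under the limit. Of these, Cd68 (0.99, adjusted p = 1.14e-09) and Pecam1 (0.72, adjusted p = 0.0187) rose, though the Pecam1 groups overlapped. The part of the marker genes that changed in the collagen values was not tested.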

How the data were processed

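Reads per gene were compared between 3 SAFB KD and 3 control libraries of mouse 3T3 cells, grouped by their titles. The deposited values were raw counts, 1 library per file. The authors trimmed the reads, used STAR 2.7.9a with GENCODE gene models to map them on GRCm38, in repeated passes, and took the aligner's gene counts. The single column is inferred, not stated, to hold the reverse-stranded counts. Such counting keeps unique reads on the exons of 1 gene and strand, so reads in the overlap of Col4a1 and Col4a2 are assigned by strand. Reads on exons that 2 genes of the same strand have in common would be dropped. The spans of 3 same-strand genes touch an exon of a chain, among them BX649560.1 at the scarce Col20a1. The reads lost there were not measured.

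Of 54532 identifiers 54495 matched the GENCODE annotation of GRCm38 used here for symbols, lengths and coordinates, and 37 did not. Genes with at least 10 reads over the 6 libraries were tested with edgeR 4.0.16 (TMM, quasi-likelihood, R 4.3.3), with Benjamini-Hochberg adjustment over all genes and a threshold of 0.05. Changes beyond 2-fold used glmTreat. Tests were 2-sided. SE is derived from the test, SD is over libraries, and intervals for counts cover counting error only. The common biological coefficient of variation was 3.49%. The test was tried on simulated data: of 100 genes changed by 0.5 on the log2 scale 93 were called. The changed genes were all of at least 1 CPM, and every gene was given the same biological variation. The figure therefore does not cover scarcer chains or genes that vary more.

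The series text calls the replicates biological, and every replicate pair differed by more than counting noise (4.18 to 21.7 for chi-square over its degrees of freedom). Collagen chains, types, pathway lists and markers were chosen with earlier results of these data known, as were the tests. Values in every library are given for chains of at least 1 CPM that were called with a change of at least 0.5 on the log2 scale, and for the 5 most abundant. Col2a1, Col14a1 and Col22a1 reads were added after their values were seen. Of each pathway list up to 4 called genes with the smallest adjusted p are named. Of the degradation list Mmp2, Mmp9, Mmp10, Mmp14 and Ctsk were added after their values were seen, as were Fn1 and the sums of the fibril-binding and receptor lists. Of the marker lists the genes named were chosen after their values were seen. Alternatives were RLE, upper-quartile and no scaling factors, TMM without collagens, no filter, filterByExpr, DESeq2 1.42.0, limma-voom (limma 3.58.1), a replicate block and leaving out each library, and for ratios the coding length or no length. Promoters are from RefSeq. Splicing and transposon RNA were not analysed here. Figures used matplotlib 3.10.9 in Python 3.11.15.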

Additional observations from a re-analysis of the deposited data

How the results depend on the processing

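Of the 20 called chains 18 were called in each of the 15 alternatives that tested them, and 0 changed sign. Chains called higher numbered 3 to 4 and chains called lower 15 to 17 when single libraries were left out, and 3 to 4 and 17 to 18 under the other settings. Values of chains that were not called turned sign in a few cases: Col8a1 was -0.0060 with library totals and no scaling factor, Col7a1 was -0.081 without control 1 (range -0.081 to 0.21 over single libraries left out), and Col25a1 was -0.31 without control 3 and -0.68 without SAFB KD 3 (range -0.68 to 1.20). The count of basement membrane chains called higher was 1 under limma-voom (Col4a2, adjusted p = 0.0234), against 0, and ran between 0 and 1 when single libraries were left out (1 without control 1). The count of FACIT chains called higher ran between 1 and 2, the addition being Col14a1 without control 2 (2.54, adjusted p = 0.0357). Col4a1 was called lower with RLE factors (adjusted p = 0.0415), no scaling factor (0.00428), filterByExpr (0.034), DESeq2 (0.0252), limma-voom (0.0219) and without control 3 (0.00952). The causes were not tested. The filterByExpr filter tested 28 of the 33 chains. The difference in the Col5a1 to Col5a2 ratio ran between -0.93 and -0.81 when single libraries were left out, and the ratio of summed collagen CPM between 0.818 and 0.855.

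Replicate numbers did not pair the samples: deviations of same-numbered libraries correlated at 0.05, 0.01 and -0.00. With the replicate number as a block 3 chains were called higher and 17 lower, and 4186 and 3931 of all genes. Without a scaling factor 3466 of all genes were called higher and 4481 lower, against 4155 and 3908, with a median of -0.03. Calls beyond 2-fold over all genes fell to 76 higher and 55 lower with DESeq2 and 79 and 58 with limma-voom, against 136 and 102. Depth limits the 9 chains under 1 CPM, where 3 reads are worth 0.0572 to 0.0893 CPM.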
